A study of Mus musculus with 51 samples.

Results

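The regions described here are the H3K27ac peaks of late astrocytes (lA) that overlapped no H3K27ac peak of early astrocytes (eA), divided by whether an H3K4me1 peak was already present in eA. Of 90545 lA H3K27ac peaks on chromosomes 1 to 19, 30757 (34.0%) overlapped no eA H3K27ac peak by 1 bp or more and are called new, and the other 59788 are called kept. Of the new peaks, 20359 overlapped an eA H3K4me1 peak by 1 bp or more and are called primed, and 10398 did not and are called unprimed. The names stand for these overlaps alone. Across the 6 peak lists of the series (H3K27ac and H3K4me1 in 3 stages), 784577 peaks lay on these chromosomes.

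The cells were embryonic stem (ES) cells of the C57/BL-6 mouse strain, turned in culture into astrogliogenic neural progenitor cells (aNPC) that were kept in DMEM-F12 with N2, EGF and FGF-2. To become astrocytes, aNPC were moved to DMEM with FBS and LIF, for 1 day to give eA and for 5 days to give lA, which the labels also call mature astrocytes. No gene was altered in any of these 3 stages, and all cells came from a culture model and not from brain tissue. For each stage and mark, 2 biological replicates were immunoprecipitated, but their reads were merged by the authors before peaks were called. Each stage and mark thus had 1 list, no error between cultures could be given, and no p-value was computed. The depth behind each list is unknown. Intervals are 95% and cover counting error over peaks only.

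H3K27ac is the acetylation of lysine 27 of histone H3 and lies at active promoters and enhancers, where acetyltransferases such as p300 and CBP deposit it. H3K4me1, the monomethylation of lysine 4, is placed mainly by the methyltransferases MLL3 and MLL4 and lies at enhancers that are active or that may become active later. An enhancer with H3K4me1 and without H3K27ac is commonly called primed. Astrocytes regulate glutamate, potassium and water in the brain, and their differentiation in culture is driven by LIF through gp130, JAK and STAT3. The comparison asked how often H3K27ac that appeared between day 1 and day 5 arose where H3K4me1 already stood, and how those sites differed from the rest.

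The 4 distal new peaks of each set with the highest −log10 q, and the strongest new peak of 5 genes followed below, are shown by the 150 bases around their H3K27ac summits (mm9, plus strand), so that the strongest sites can be read as sequence. The primed distal sites have as nearest start that of Wdr72 (chr9:74255752-74255901), Slitrk5 (chr14:112144215-112144364), Actl7b (chr4:56318377-56318526) and Get4 (chr5:139733403-139733552), and the unprimed ones that of Scn7a (chr2:66576046-66576195), 4930423O20Rik (chr16:70379020-70379169), Gm10110 (chr14:90010094-90010243) and Wt1 (chr2:105003527-105003676). The others are the primed peaks of Runx2 (chr17:44951568-44951717, at the promoter), Tgfbr3 (chr5:107706583-107706732) and Nfia (chr4:97636445-97636594) and the unprimed peaks of Col8a1 (chr16:57796044-57796193) and Rora (chr9:68473449-68473598). Capitals mark matches, on either strand, to any of 8 motif strings whose frequencies are given further on.
Wdr72, primed: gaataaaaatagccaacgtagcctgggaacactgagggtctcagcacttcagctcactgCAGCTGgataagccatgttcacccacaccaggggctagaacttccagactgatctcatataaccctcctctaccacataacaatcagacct
Slitrk5, primed: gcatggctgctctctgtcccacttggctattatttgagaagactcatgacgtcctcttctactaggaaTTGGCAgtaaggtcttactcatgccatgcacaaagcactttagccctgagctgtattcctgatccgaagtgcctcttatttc
Actl7b, primed: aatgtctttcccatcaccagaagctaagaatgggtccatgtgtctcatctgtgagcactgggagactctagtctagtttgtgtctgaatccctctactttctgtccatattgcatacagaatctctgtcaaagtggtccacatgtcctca
Get4, primed: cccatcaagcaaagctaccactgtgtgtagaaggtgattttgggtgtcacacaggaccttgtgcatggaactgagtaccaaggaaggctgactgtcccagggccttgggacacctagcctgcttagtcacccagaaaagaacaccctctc
Scn7a, unprimed: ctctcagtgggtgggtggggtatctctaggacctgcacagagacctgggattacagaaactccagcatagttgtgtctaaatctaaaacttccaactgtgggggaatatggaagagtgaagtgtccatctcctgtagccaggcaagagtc
4930423O20Rik, unprimed: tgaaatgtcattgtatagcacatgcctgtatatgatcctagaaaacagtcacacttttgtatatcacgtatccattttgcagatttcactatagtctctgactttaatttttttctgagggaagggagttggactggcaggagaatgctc
Gm10110, unprimed: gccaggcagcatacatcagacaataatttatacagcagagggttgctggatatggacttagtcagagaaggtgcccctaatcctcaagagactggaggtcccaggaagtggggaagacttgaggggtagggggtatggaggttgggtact
Wt1, unprimed: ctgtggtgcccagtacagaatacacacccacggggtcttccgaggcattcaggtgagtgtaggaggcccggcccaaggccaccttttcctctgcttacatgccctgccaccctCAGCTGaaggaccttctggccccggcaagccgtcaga
Runx2 promoter, primed: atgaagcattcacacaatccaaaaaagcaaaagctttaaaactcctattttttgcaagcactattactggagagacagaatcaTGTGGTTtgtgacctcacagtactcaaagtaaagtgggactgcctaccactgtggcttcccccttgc
Tgfbr3, primed: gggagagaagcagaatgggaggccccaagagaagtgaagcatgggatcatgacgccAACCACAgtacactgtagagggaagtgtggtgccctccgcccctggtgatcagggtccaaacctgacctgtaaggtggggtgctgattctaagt
Nfia, primed: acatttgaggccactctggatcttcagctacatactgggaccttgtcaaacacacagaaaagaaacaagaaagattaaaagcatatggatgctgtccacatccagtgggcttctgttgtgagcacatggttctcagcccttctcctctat
Col8a1, unprimed: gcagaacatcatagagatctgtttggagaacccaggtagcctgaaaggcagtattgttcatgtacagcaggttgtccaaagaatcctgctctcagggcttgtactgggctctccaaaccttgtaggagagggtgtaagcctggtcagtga
Rora, unprimed: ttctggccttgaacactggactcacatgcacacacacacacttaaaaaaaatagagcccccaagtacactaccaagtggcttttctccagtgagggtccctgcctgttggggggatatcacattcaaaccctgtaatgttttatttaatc
Wdr72 and Wt1 held the E-box string, Slitrk5 the NF1 string, and Runx2 and Tgfbr3 the RUNX string, while the other 8 windows held none. Of the 10 strongest distal peaks of each set, 4 primed and 2 unprimed ones held any string in such a window, too few to set the sets apart.

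The lists were first compared with the label of the cells, by H3K27ac over promoters, since only chromatin was at hand. In lA, 17 of 20 astrocyte identity genes had an H3K27ac peak over a promoter, against 48.9% of all 21275 coding genes. S100b, Aldh1l1 and Gjb6 had none. A peak over a promoter was present at 3 of 17 neuronal genes, 1 of 11 oligodendrocyte genes, 1 of 10 pluripotency genes and 7 of 16 progenitor genes. The mark was thus present at most astrocyte genes and at few neuronal, oligodendrocyte and pluripotency genes, while progenitor genes lay near the share of all genes.

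H3K4me1 preceded most of the new H3K27ac. Of the 30757 new lA peaks, 66.2% (65.7 to 66.7) overlapped an eA H3K4me1 peak. The share was 88.5% (88.3 to 88.8) at kept peaks, 22.3 points higher than at new ones (21.8 to 22.9), and 80.9% over all lA H3K27ac peaks. A stage earlier, 64.3% (63.8 to 64.7) of the 35594 eA H3K27ac peaks that were new against aNPC overlapped an aNPC H3K4me1 peak. The share in the step from eA to lA was 1.94 points above that in the step before (1.21 to 2.67), but the eA H3K4me1 list was also larger, covering 109.4 Mb against 89.7 Mb in aNPC, and its part in the difference was not tested. On single chromosomes the primed share ran from 61.3% on chromosome 3 to 71.4% on chromosome 11.

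Most primed peaks had their summit inside the H3K4me1 region, though fewer lay in it whole. The H3K27ac summit lay inside the eA H3K4me1 peak in 81.7% of primed peaks, and 44.0% of primed peaks lay wholly inside one. The median distance between the H3K27ac summit and the nearest eA H3K4me1 summit was 188 bp (184 to 192). At the edge of the rule, 148 primed peaks overlapped H3K4me1 by under 10 bp and 132 unprimed peaks missed it by under 10 bp, and 186 new peaks missed an eA H3K27ac peak by under 10 bp.

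Many unprimed peaks were close to eA H3K4me1 without touching it. In 24.9% of the 10398 unprimed peaks the nearest eA H3K4me1 peak was at most 200 bp away, and in another 37.0% it was over 200 and up to 1000 bp away. In 10.0% (9.48 to 10.6) it was over 10 kb away. H3K4me1 lay within 1 kb on both sides of 6.88% of unprimed peaks. Unprimed therefore describes the site of the peak and not its neighbourhood.

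The history of both marks differed between the sets. An aNPC H3K4me1 peak was present at 58.4% of primed and 5.63% of unprimed peaks, and an aNPC H3K27ac peak at 25% (24.4 to 25.6) and 5.67% (5.25 to 6.14), 19.3 points apart. Thus 5083 primed peaks had H3K27ac in aNPC, none called in eA, and H3K27ac again in lA. Of the new peaks with aNPC H3K27ac, 89.6% were primed, and of those without it 60.9%, a difference of 28.7 points (27.7 to 29.7). In lA itself, H3K4me1 was called at 89.0% of primed and 49.8% of unprimed peaks, 39.2 points apart (38.2 to 40.3). Within the primed set, 54.2% of peaks had H3K4me1 at all 3 stages, 34.9% first in eA and still in lA, and 6.75% in eA alone. Within the unprimed set, 46.3% gained H3K4me1 first in lA together with H3K27ac, and 48.0% had no H3K4me1 peak at any stage.

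**Figure D1:**
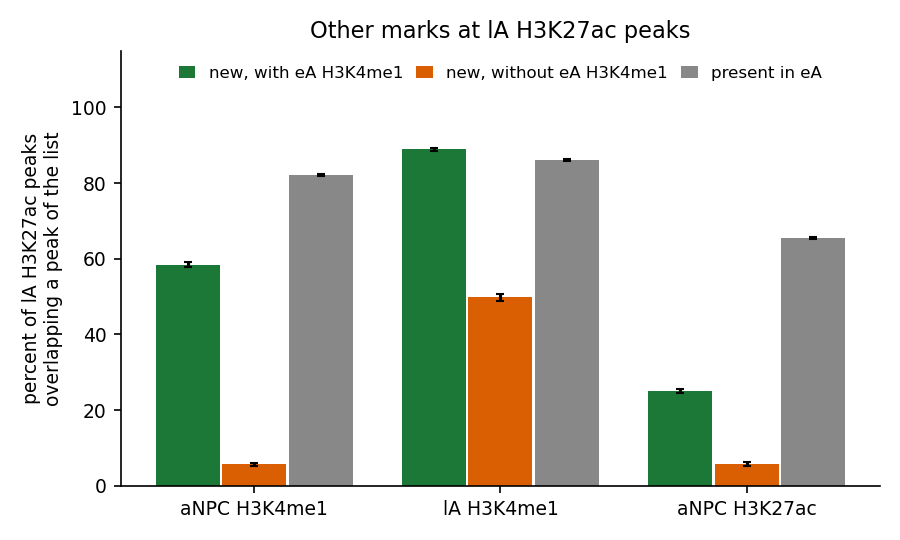
Share of lA H3K27ac peaks (vertical axis, percent) that overlapped a peak of the aNPC H3K4me1, lA H3K4me1 and aNPC H3K27ac lists, for new peaks with eA H3K4me1 (green), new peaks without it (orange) and peaks already present in eA (grey), with 95% Wilson intervals. Unprimed peaks were lowest for all 3 marks, at 5.63%, 49.8% and 5.67%.

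New peaks of both sets were mainly distal. Promoter peaks, centred between 1 kb before and 100 bp after the start of a coding gene, made up 2.37% (2.17 to 2.59) of primed and 1.82% (1.58 to 2.09) of unprimed peaks, a difference of 0.550 points (0.210 to 0.874). At kept peaks the share was 13.7%, and new peaks as a whole were 11.5 points below it (11.2 to 11.8). Introns held 45.4% of primed and 42.1% of unprimed peaks, and intergenic sequence held 49.6% and 54.2%. The 482 primed and 189 unprimed promoter peaks gave a primed share of 71.8% at promoters against 66.1% at distal sites, 5.77 points apart (2.21 to 9.08). When all lists were held to a −log10 q of 5 or more, the promoter difference was 0.165 points with an interval from -0.295 to 0.599, and with that threshold in lA alone it was 0.442 points (-0.0675 to 0.912). Within quartiles of width, and likewise of −log10 q, the difference stayed above 0, from 0.190 to 1.01 points over both, but with fewer peaks in each the interval held 0 in 3 of 4. By summit it was 0.733 points (0.408 to 1.06). Where new peaks had to be over 1 kb from eA H3K27ac, promoter peaks made up 1.24% of primed and 0.834% of unprimed peaks.

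Primed peaks lay nearer to genes. The median distance from the peak centre to the nearest coding start site was 39.9 kb (38.8 to 40.9) for primed and 50.2 kb (48.2 to 52.2) for unprimed peaks, a ratio of 0.795. For kept peaks it was 18 kb (17.6 to 18.3). Distances of 200 kb or more were found for 12.4% of primed and 16.3% of unprimed peaks. Within each quartile of peak width the ratio stayed between 0.776 and 0.814, and within each quartile of −log10 q between 0.739 and 0.878. Primed peaks were also nearer to H3K27ac that was already present in eA: 41.0% lay within 1 kb of an eA H3K27ac peak, against 32% of unprimed peaks, 8.99 points apart (7.87 to 10.1).

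**Figure D2:**
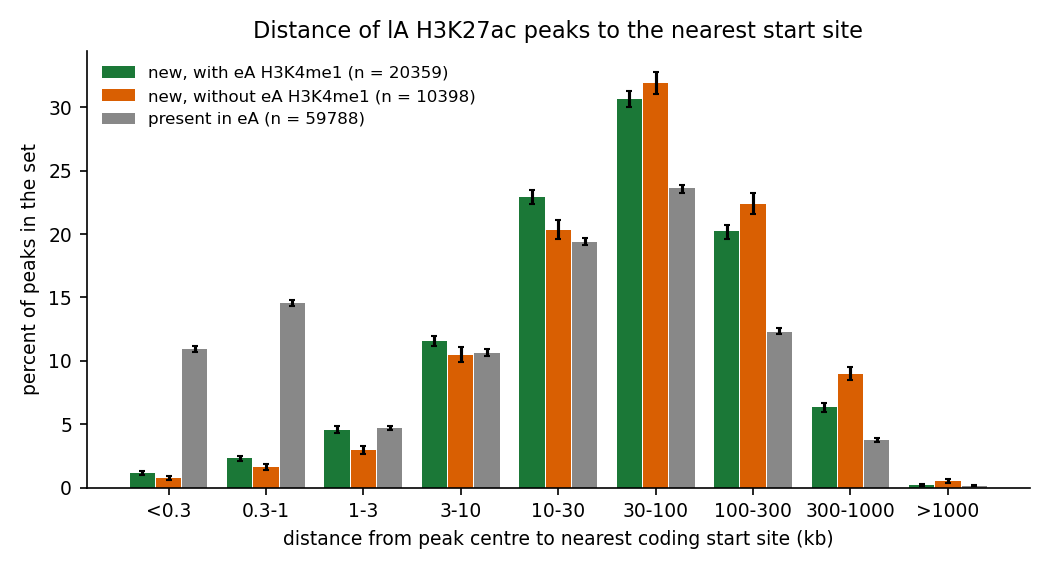
Distribution of the distance from the peak centre to the nearest coding start site (horizontal axis, kb, classes of unequal width) as a percent of the peaks in each set (vertical axis), with 95% Wilson intervals. Unprimed peaks (orange) exceeded primed peaks (green) from 30 kb outward, and kept peaks (grey) stood apart below 1 kb.

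Primed peaks were wider and somewhat stronger. The median width was 295 bp (292 to 297) for primed, 254 bp (252 to 256) for unprimed and 560 bp (556 to 564) for kept peaks, and the primed median was 1.16 times the unprimed one. The narrowest peaks in the list were 196 bp wide. The median −log10 q, a measure of how far the reads at the summit stood out, was 5.42 (5.36 to 5.48) for primed and 5.00 (4.94 to 5.06) for unprimed peaks, and 12.3 for kept peaks. Median fold enrichment was 3.36 and 3.25. Width itself enters an overlap rule, and the primed share rose with width, from 58.1% in the narrowest quartile to 76.7% in the widest. It rose from 61.1% to 73.0% with −log10 q and fell from 70.3% to 61.6% with distance to a start site. Where the summit alone had to lie in the H3K4me1 peak, which removes width from the overlap, the primed share was 54.1% and the ratio of widths 1.09.

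**Figure D3:**
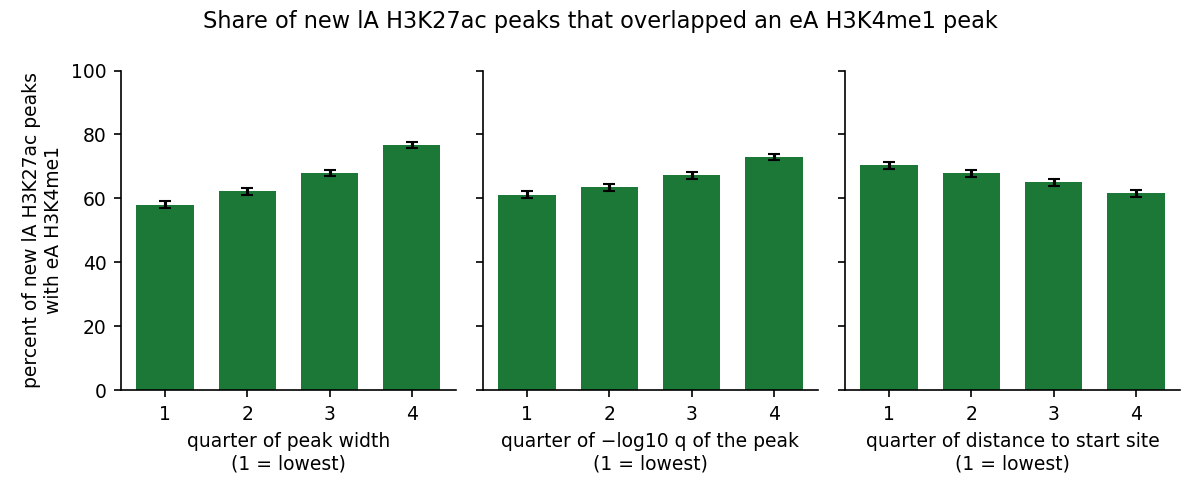
Percent of new lA H3K27ac peaks that overlapped an eA H3K4me1 peak (vertical axis) in quartiles of peak width, of −log10 q and of distance to the nearest start site (horizontal axes, 1 = lowest), with 95% Wilson intervals. The share rose from 58.1% to 76.7% with width and fell from 70.3% to 61.6% with distance.

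Seen forward in time, few eA H3K4me1 peaks without H3K27ac had H3K27ac at day 5. Of 181227 eA H3K4me1 peaks, 115925 overlapped no eA H3K27ac peak, and 13.7% (13.5 to 13.9) of these overlapped an lA H3K27ac peak. For 12.4% it was a new lA peak, and for the other 1494 sites a kept one. Of the eA H3K4me1 peaks that already had H3K27ac, 78.4% (78.1 to 78.7) did so, and 4706 of them overlapped a new lA peak, so the H3K4me1 peak under a primed peak could itself bear H3K27ac elsewhere along it. Among those without eA H3K27ac, the share followed the strength of the H3K4me1 peak, from 7.62% in the lowest decile of −log10 q to 27% in the highest, while the median width of the H3K4me1 peaks rose from 213 bp to 880 bp over the same deciles. The part of width in this trend was not tested. The sites that gained H3K27ac had a median width of 514 bp against 351 bp for those that did not. They lay further from start sites, at 39.8 kb (38.6 to 41.2) against 32.3 kb (31.8 to 32.8). The share was slightly lower where H3K4me1 was older: 13.3% (13.0 to 13.5) of sites with aNPC H3K4me1 gained H3K27ac and 14.4% (14.1 to 14.7) of sites without it. H3K4me1 was still called in lA at 89.7% of the sites that gained H3K27ac and at 64.4% of those that did not.

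**Figure D4:**
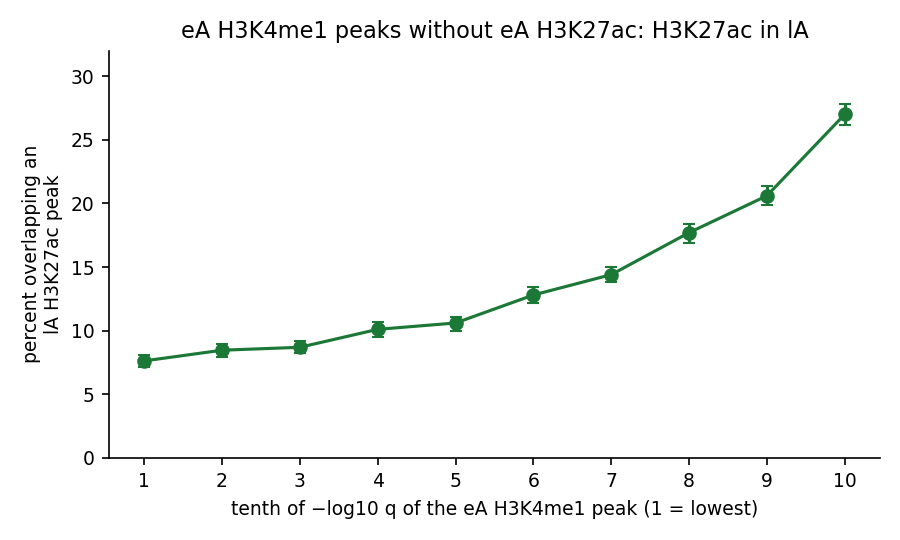
Percent of eA H3K4me1 peaks without eA H3K27ac that overlapped an lA H3K27ac peak (vertical axis), by decile of the −log10 q of the H3K4me1 peak (horizontal axis, 1 = lowest), with 95% Wilson intervals. The share rose from 7.62% to 27%.

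Distal peaks were ranked apart from promoter peaks. Among primed peaks the top −log10 q, 39.1, was that of the peak at chr9:74255639-74256371, 297842 bp from the nearest start site, that of Wdr72. It was followed by peaks 66209 bp from the start of Slitrk5, a synaptic membrane protein, and 435792 bp from that of Actl7b, at −log10 q of 37.3 and 36.0. Of the 10 strongest distal primed peaks, 2 had H3K4me1 in aNPC, with Ifnk and Spata9 as genes of the nearest start, and all 10 kept it in lA. The strongest unprimed peak, at chr2:66575709-66576710, had a −log10 q of 41.9 and lay in an intron, 46.8 kb from the start site of Scn7a, a sodium channel also found in glia. Its nearest eA H3K4me1 peak was 9914 bp away. The next, at 37.9, lay outside 4930423O20Rik, 3699 bp from its start and in an intron of another gene, and missed an eA H3K4me1 peak by 4 bp, and then a peak 288017 bp from the start of Gm10110, at 35.7, with a gap of 40621 bp. Peaks in an intron of Wt1, a transcription factor, and 125341 bp from the start of Bmp2, a BMP ligand, came after these at 33.5 and 31.9, with gaps of 813 bp and 12874 bp. Of the 10 strongest distal unprimed peaks, 7 had gained H3K4me1 by lA. A peak in an intron of Slc22a4, a peak 15899 bp upstream of the start of C1qtnf9, and a peak 1082089 bp from its nearest start, that of Nmbr, had not. Among promoters, the strongest primed peak was at Ndrg1, at 19.9, followed by Pik3ip1, Ankrd55 and Acsl6, an acyl-CoA synthetase of astrocytes and neurons. The strongest unprimed promoter peaks were at Olfr543, an olfactory receptor gene, at 26.9, and Hoxd3 at 19.2. The gap to the nearest eA H3K27ac peak was 250, 185, 294 and 230 bp at these primed promoters and 224 and 636 bp at the unprimed ones. These promoter peaks thus stood beside H3K27ac already called in eA.

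Each new peak in a gene body, or within 50 kb of a coding start site, was counted for the gene whose start was nearest, which placed 72.2% of primed and 66.7% of unprimed peaks. Of 21275 coding genes, 6387 (30.0%) were nearest to at least 1 primed peak and 3844 (18.1%) to at least 1 unprimed peak. The sets shared 2779 genes, which were 43.5% of the former and 72.3% of the latter, and 1065 genes had unprimed peaks alone. Genes with both spanned a median of 62.5 kb, against 15.6 kb for all coding genes. A gene with a primed peak had 2.30 of them on average.

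Most of the genes with the highest counts of new peaks were long. Trim32, a ubiquitin ligase, had 21 primed and 7 unprimed peaks. Opcml and Cdh13, membrane-anchored adhesion proteins, had 20 and 7, and 16 and 1, over spans of 1134.6 kb and 1041.2 kb. Ptprg, a receptor phosphatase of 688.5 kb, had 19 and 5, and Nrp2, a semaphorin co-receptor, had 18 and 5. Atxn7l1, 2010111I01Rik, Magi1 and Park2 were also among the 10. The genes with most unprimed peaks were Fhit, with 18 unprimed and 12 primed, Lrtm1, with 17 and 15, and Adamtsl1 and Lrrn3, with 15 each and 13 and 6 primed. Sorbs2, an adaptor of the cytoskeleton, stood out with 14 unprimed and 3 primed, and Ank2, an ankyrin, with 12 and 4. Park2 and 2010111I01Rik were among the 10 of both orders, and Lrp1b and Setbp1 completed the second. Trim32, Lrtm1 and Lrrn3 span only 11.3 kb, 15.4 kb and 34.1 kb, and peaks in the introns of a longer gene around them count for them where their start site is the nearest.

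Of the lA H3K27ac peaks counted for astrocyte identity genes, 21.2% were new, against 34.0% of all lA peaks. The bases differ, since the second share includes peaks given no gene, and 70.3% of new peaks were given one. The share of new peaks among all lA peaks given a gene was not computed. Gfap, the astrocyte filament protein, Aldoc and S100b had no new peak, with 3, 4 and 2 kept peaks, while Acsl6, Gjb6 and Glul had more new than kept ones. Nfia, a transcription factor of gliogenesis, had 7 primed and 4 unprimed peaks beside 37 kept, and all of its new peaks were intronic, an unprimed one 41789 bp before its start in an intron of another gene. Its strongest new peak, printed above, missed an eA H3K27ac peak by 4 bp and had H3K27ac in aNPC. Its related factor Nfib had 6 and 1. Cd44, a hyaluronan receptor, had 3 primed peaks, all in introns, and 2 unprimed ones, both intergenic. Aldh1l1, a folate enzyme and pan-astrocyte marker, had 1 of each. Aqp4, the water channel of astrocyte endfeet, ran the other way, with 2 primed and 8 unprimed peaks beside 20 kept. Its unprimed peaks included one at chr18:15561565-15561905, whose centre was 234 bp from a start site. The other 7 lay outside the gene, 2 of them intergenic and 5 of them 63201 to 142351 bp from the start site in introns of another gene, so that Aqp4 was only the gene with the nearest start. The −log10 q of the 8 unprimed peaks ran from 2.28 to 8.33, and 3 reached 5. Their gaps to the nearest eA H3K27ac peak were 388, 495, 813, 851, 943, 1317, 11798 and 13233 bp. The promoter and distal regions that the study amplified at Aqp4 overlapped kept lA H3K27ac peaks and eA H3K4me1 peaks. Across the list, 13 of 20 genes had a primed peak and 6 an unprimed one, against 30.0% and 18.1% of all coding genes. Of its 54 new peaks, 35 were primed (64.8%, 51.5 to 76.2), an interval that holds the 66.2% of all new peaks, given a gene or not.

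Runx2, a Runt domain factor best known from bone, had 12 primed and 6 unprimed peaks beside 18 kept. Its strongest new peak was the promoter peak at chr17:44951488-44951760, printed above, with a −log10 q of 10.8 and a centre 48 bp from the start site. Of the others, 2 primed peaks lay over 267 kb upstream, at −log10 q of 6.15 and 8.21, in an intron of the neighbouring Supt3h. All 6 unprimed Runx2 peaks were under a −log10 q of 5, and 6 of the 12 primed ones reached it. Runx1 had 2 of each, and Runx3 and the partner subunit Cbfb 1 primed peak each.

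In the signalling pathways, receptors, transducers and inhibitors all had new peaks. Tgfbr3, the co-receptor betaglycan, had 16 primed and 1 unprimed peak, the strongest primed one at chr5:107706349-107706822, printed above, with a −log10 q of 20.4. The transducer Smad3 had 8 primed and 1 unprimed peak and the inhibitor Smad6 had 7 and 0. The ligand Bmp6 had 3 and 2, and the receptor Bmpr1b went the other way with 1 and 4. Of the BMP and TGF-beta list, 18 of 23 genes had a primed and 12 an unprimed peak. Of the gp130, JAK and STAT list, 12 of 15 and 7 of 15 did, and of all coding genes 30.0% and 18.1%. In it the receptor Lifr had 5 primed and 1 unprimed peak, Jak1 had 3 of each, Stat3 had no new and 4 kept peaks, and Il6st, which encodes gp130, and the inhibitor Socs3 had 2 and 1 each. Il6, a ligand of gp130 placed in the reactive list, had 5 primed and 1 unprimed peak, all 6 with a −log10 q of at least 5. Ptx3, a reactive astrocyte gene, had 7 and 4, S1pr3 had 3 and 1, and Cp, ceruloplasmin, had 1 and 4.

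Among transport genes, Abat, which degrades GABA, had 5 primed and 0 unprimed peaks, and the cystine exchanger Slc7a11 had 4 and 1. The glutamate transporter Slc1a2 had 0 primed and 3 unprimed new peaks beside 12 kept. Slc4a4, a bicarbonate transporter, had 4 primed and 0 unprimed, and Dtna, a dystrobrevin at endfeet, had 6 and 3. In the matrix list, 19 of 26 genes had a primed and 17 an unprimed peak, against 30.0% and 18.1% of all coding genes. Lama2, a laminin chain, had 9 and 1, Col4a2 had 8 and 1, and Timp3, a protease inhibitor, had 6 and 5. Col8a1, a collagen chain, had 3 primed and 7 unprimed peaks, 6 of the latter with a −log10 q of at least 5. Cdh4 had 9 primed and 0 unprimed, and Ncam1 had 6 and 1. The integrin and adhesion list as a whole had 36 primed peaks among 46 (78.3%, 64.4 to 87.7). In all 18 lists the interval of this share held the 66.2% of all new peaks, given a gene or not.

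Of the NFI and Sox list, 9 of 11 genes had a primed and 6 an unprimed peak, and of the AP-1 and Atf list 7 of 13 and 4 of 13, with 6 of 13 near no new peak, beside 30.0% and 18.1% of all coding genes. In the NFI and Sox list, Sox6 had 13 primed and 5 unprimed peaks and Sox5 had 14 and 3. In the AP-1 and Atf list, Bach2 had 6 and 1, Fos had 4 and 0, Atf3 had 3 and 1, and Fosl2 had 1 and 2. Of the Hippo effectors and targets, Ctgf had 5 and 2, Tead1 had 4 and 2, Cyr61 had 3 of each and Amotl2 had 2 and 3. The nuclear receptor Thrb had 13 and 8, Rorb had 6 and 1 and Rxra had 5 and 1, whereas Rora had 6 primed and 9 unprimed. In the lipid list, the cholesterol exporter Abca1 had 3 and 2, Srebf1, a regulator of lipid synthesis, had 3 and 1, and Cyp7b1 had 1 and 2.

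Lists of other cell types had new peaks too. Of 17 neuronal genes, 7 were nearest to a primed and 4 to an unprimed peak, among them Snap25 with 3 and 2, and Gad1 and Gad2 with 3 and 1 each. Of 11 oligodendrocyte genes, 6 and 2 were, led by Cspg4 with 4 primed peaks, of 10 pluripotency genes 4 and 3, and of 16 progenitor genes 9 and 4, led by Hes1 with 4 and 3. All 18 lists had a larger share of genes with a primed peak than the 30.0% of all coding genes, the lowest being pluripotency at 40.0%. The same was true of unprimed peaks, where all 18 lists lay above the 18.1% of all coding genes, the lowest at 18.2%. Over the 243 listed genes together, 64.6% had a primed and 41.6% an unprimed peak. Listed genes were longer, with a median span of 28.0 kb, and the share of coding genes with a primed peak rose from 16.3% for spans under 10 kb to 69.5% for spans of 100 kb or more. In these classes the listed genes had shares of 54.2% and 90.2%. At 10 to 30 kb theirs was 35.2% against 25.6% of all genes, and at 30 to 100 kb 80.3% against 40.7%. The part of gene length in the list counts was not tested.

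**Figure D5:**
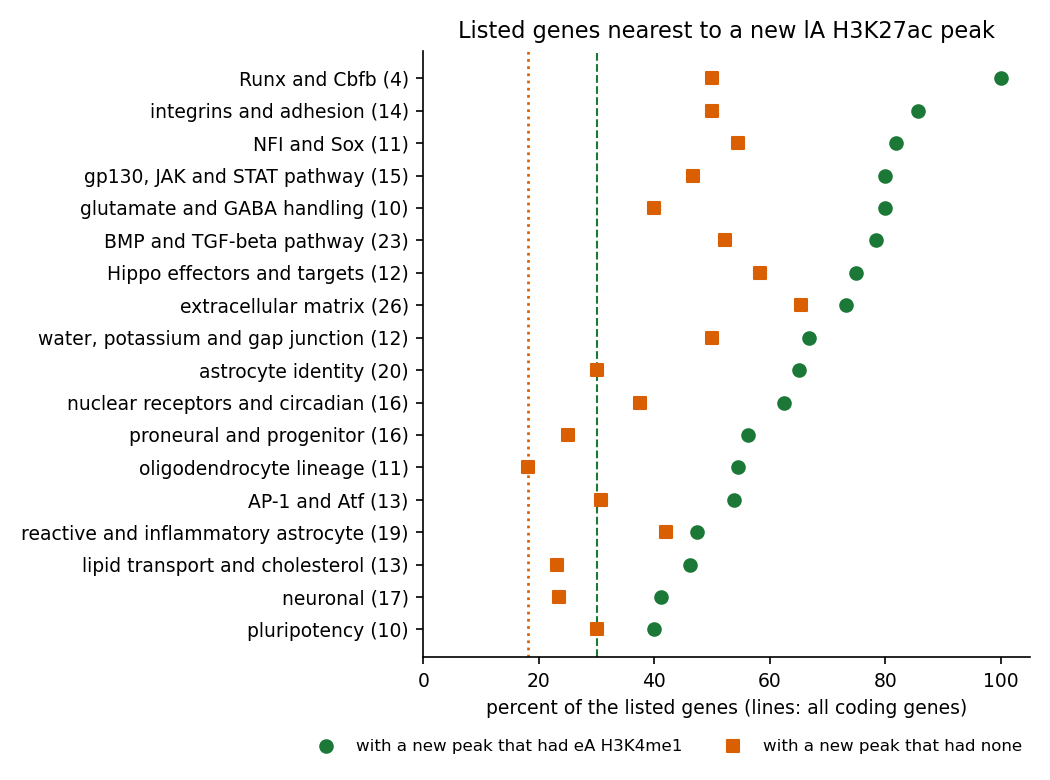
Percent of the genes of each list (number of genes in brackets) that were nearest to a primed (green circles) or an unprimed (orange squares) new peak. The dashed and dotted lines give the 30.0% and 18.1% of all coding genes, and every list lay above its line for both kinds of peak.

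The sequence around the summits differed a little between the sets. In the 200 bp around the summit, median GC content was 48.0% for distal primed, 46.0% for distal unprimed and 49.0% for distal kept peaks. The 8 strings, each named for the factor family it is known for and none containing another, were searched on both strands. The E-box string CAGCTG was found at 12.8% of distal primed and 9.96% of distal unprimed peaks, 2.83 points apart (2.08 to 3.57). It was found at 12.8% of distal kept peaks and at 12.3% of all lA H3K27ac peaks, promoters included. The NF1 string TTGGCA was found at 12.3% and 10.7%, 1.64 points apart (0.878 to 2.39), and at 11% of all lA peaks. Within quartiles of GC content the difference for the E-box string was 0.634 to 2.38 points and that for the NF1 string 1.14 to 2.43 points. The STAT string TTCNNNGAA was less frequent at primed peaks, at 6.51% against 7.31%, with 6.13% over all lA peaks, and within quartiles of GC its difference ran from -0.794 to 0.231 points. The RUNX string TGTGGTT, present in the Runx2 and Tgfbr3 peaks printed above, was found at 4.31% and 4.53%, a difference of -0.219 points (-0.721 to 0.265), and at 3.91% of all lA peaks. The AP-1 string TGANTCA was found at 6.73% and 6.52%, 0.208 points apart (-0.393 to 0.792), and at 5.68% of all lA peaks. The TEAD string GGAATG, at 11.2% of all lA peaks, differed between the sets by 0.594 points (-0.190 to 1.36). The forkhead string TGTTTAC, at 2.62% of all, differed by 0.296 points (-0.0974 to 0.672). The CEBP string TTGCNNCAA, at 1.56% of all, differed by -0.310 points (-0.640 to -0.000311), but within quartiles of GC its difference ran from -0.999 to 0.312 points. The strings are matches of letters, not bound sites.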

How the data were processed

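H3K27ac and H3K4me1 ChIP-seq was used from aNPC, eA and lA. The authors aligned reads uniquely to mm9 with Bowtie, merged both replicates with SAMtools (0.1.19 in the submitters' processing notes) and called peaks with MACS2 at default settings without input, so weak or broad regions may be split or missed. The fold of each deposited peak is its summit enrichment over the local background of the same reads, and the −log10 values are the authors' q-values at the summit. Both were used within one list only. Per the deposited lists, positions were counted from 0 and were shifted to count from 1.

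Overlaps, distances (GENCODE M1, mm9), Wilson and Newcombe intervals and order-statistic intervals of medians were computed with Python 3.11.15, numpy 2.4.6, pandas 2.3.3 and scipy 1.17.1, and plots with matplotlib 3.10.9; overlap functions were tested on simulated data. Quartiles were cut over all new peaks. A peak within a gene was given to the nearest coding start site, which can be that of another gene. Genes with the same symbol were counted once. Named genes are the 10 with most primed and most unprimed peaks, those nearest to the 10 strongest distal peaks of each set, up to 4 of each of 18 gene lists with most new peaks, and 9 genes that the study names; promoter examples were added after their values were seen, as were the sequences printed. The members and lists were chosen with earlier results of these data known. RNA-seq and knockdown samples were not analysed here, and 8 RNA-seq samples have conflicting labels. No per-sample column was left unused. Some genes that the rule names are not reported here.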

Additional observations from a re-analysis of the deposited data

How the results depend on the processing

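No paired analysis was possible because both replicates of each stage and mark were merged before peaks were called, and no replicate could be left out for the same reason. Settings were tried for the primed share, the promoter, distance, width and forward results and the gene counts, and none of these reversed. The primed share of new peaks, 66.2%, was 69.6% when lA H3K27ac peaks needed a −log10 q of at least 5, 54.1% when the summit had to lie in the eA H3K4me1 peak, 53.5% when at least 50% of the peak had to overlap, 87.1% with H3K4me1 within 1 kb, and 62.9% when new peaks had to be over 1 kb from eA H3K27ac. It was 60.9% when they also had to be absent from aNPC, a setting chosen after seeing the data. The promoter difference was 0.165 points with the strict threshold in every list and 1.42 points when a promoter was any annotated start plus or minus 1 kb. The ratio of distances was 0.853 with the strict lA threshold. The ratio of widths was 1.20 with the strict threshold in lA or in every list, 1.09 by summit, 1.07 by 50% overlap, 1.08 within 1 kb and 1.19 away from eA H3K27ac. The forward share was 13.2% with the strict threshold, 10.2% by summit and 11.5% away from eA H3K27ac. Genes near unprimed peaks fell from 3844 to 2464 with the strict lA threshold, as fewer peaks remained. Adding X and Y, tried for the primed share and the promoter, distance and width results, moved none of these beyond its interval. Beyond what each setting itself removes, the cause was not tested. Depth is unknown, so a peak absent from a list may be below its threshold and not absent from the cells.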

Other observations

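The 52 ChIP-PCR primer pairs of the study were matched exactly to chromosomes 1 to 19 of mm9, and each gave 1 product. A single product was listed for both Glast and Glt1, which left 51 distinct products. Of these, 30 overlapped a kept lA H3K27ac peak, 21 overlapped no lA H3K27ac peak, and 0 lay in a new one, where 34.0% of all lA H3K27ac peaks were new. The study chose these sites, so they are no sample of all peaks. The product at Fzd8 overlapped lA but not eA H3K27ac, and its lA peak was kept because it met an eA peak elsewhere along its length. The region amplified at the Sncb locus missed the nearest lA H3K27ac peak by 6 bp. New peaks often came in groups: another new peak lay within 10 kb of 54.0% (53.3 to 54.7) of primed and 58.6% (57.6 to 59.5) of unprimed peaks.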
